A study of Mus musculus with 2 samples.

Results

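The genes of the mitochondrial apoptosis pathway were compared between mouse embryonic stem cells in which Mll2 was targeted by a short hairpin RNA (shRNA), called the knockdown here, and the same cells with a control shRNA. The list held 33 genes: BCL2 family members, caspases, the proteins that mitochondria release, the apoptosome scaffold and the inhibitors of apoptosis. Its members were found as the probe sets whose platform annotation gave only 1 of these symbols, which yielded 83 of the 45037 probe sets on each array and 32 of the 18193 named genes. Bax was not analysed here. The cells were of the E14 line, an established mouse embryonic stem cell line. Both groups were infected with an shRNA lentivirus for 24 h, and puromycin was then added for 5 days, at a concentration given as 2 mg/ml in the labels. The series title calls the control cells wild type, but by their labels they carried a control shRNA, so that both groups share viral infection and drug selection. Neither the hairpin sequences nor the number of clones is given in the labels. Each group was 1 array of bulk RNA. Differences therefore have no replicate check and were not tested, and no p-values are reported. In bulk RNA, fewer cells of a type and less RNA per cell cannot be told apart.

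In the mitochondrial pathway of apoptosis, BH3-only proteins sense stress and either bind the anti-apoptotic BCL2 proteins or activate the effectors BAX and BAK, which open the outer mitochondrial membrane. Cytochrome c then leaves the mitochondria and assembles with APAF1 into the apoptosome, on which caspase-9 is activated, and caspase-9 in turn cleaves the executioner caspases. Inhibitor of apoptosis proteins restrain caspases, and DIABLO and HTRA2, also released by mitochondria, relieve that restraint. Embryonic stem cells are known to die readily by this route after DNA damage. Mll2 is a name that has been used for Kmt2d and for Kmt2b, both methyltransferases of histone H3 lysine 4, a mark of active promoters and enhancers.

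The deposited values were MAS5 signals on the log2 scale. A floor was set at the median of all values over both arrays, which is 6.02 as log2 and 64.7 as a signal, and dimmer values were set equal to it. A gene was called measured where any of its probe sets exceeded the floor on either array, and its probe set with the highest mean was used. Ratios are Mll2 shRNA over control shRNA. By this rule 29 of the 33 members were measured, and each lay above it on both arrays. Casp1, Casp4 and Casp12 lay below the floor on both. The number of arrays limits the precision. As a guide to the size of a ratio, the spread at a gene's level is the median absolute deviation of ratios, scaled to an SD, over the 500 genes closest to it in level. It holds real differences as well as noise.

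Kmt2d had a signal of 335 in the knockdown array and 736 in the control array, a log2 ratio of -1.14 (probe set 1435550_at). Kmt2b was at -0.08. All 10 embryonic stem cell markers examined were measured, between 9.49 and 14.64 on the log2 scale in the knockdown array and between 9.90 and 14.86 in the control array. Their ratios went both ways, 5 higher and 5 lower with a median of -0.07, from -0.44 in Pou5f1 to 0.59 in Klf4, and 9 of the 10 lay beyond the spread at their level. Of markers of other cells, 6 of 10 for feeder fibroblasts, 5 of 7 for primitive endoderm, 5 of 6 for trophoblast and 2 of 5 for blood cells were measured, and none was 2-fold apart. At 1.5-fold, 1 fibroblast marker, Col1a2 at 0.70, and 2 endoderm markers were apart, Dab2 at -0.59 and Sox17, above the floor in the knockdown array only, at a lower bound of 0.59. The measured fibroblast markers were split, 3 higher and 3 lower. Vim was at 0.40, Col3a1 at 0.34 and Pdgfrb at -0.39. Col1a1 and S100a4, above the floor in the control array only, had bounds of -0.58 and -0.41. Of the trophoblast markers 2 were higher and 3 lower. Krt8, Krt18 and Cdx2 were at -0.57, -0.42 and -0.33. Gata3 was at 0.37 and Eomes at 0.18, with -0.92 in its other probe set. Most of these ratios were as large as most of those of the apoptosis genes given below, and their part in those results was not tested. Among the fibroblast markers Thy1, Lum, Dcn and Postn, and among the blood markers Ptprc, Adgre1 and Lyz2, lay below the floor on both arrays.

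Most of the pathway differed little between the arrays. Of the 29 measured members 1, Casp9, was at least 2-fold apart, beside 2.45% of all 11805 measured genes, and 3 were at least 1.5-fold apart, Casp9 and Casp6 higher and Bmf lower, beside 12.1% of all genes. In the upward direction 1.47% of all genes reached 2-fold and 7.4% reached 1.5-fold, and downward 0.983% and 4.68% did. The members' share at either threshold was near that of all genes, 3.45% at 2-fold and 10.3% at 1.5-fold. The members measured had a median ratio of 0.03, as was that of all measured genes. Over the alternatives it ran from -0.02 after loess to 0.15 with spike-in scaling, which raised the median of all genes by 0.11. A ratio smaller than the spread at the gene's level was found in 21 of the 29, or 72.4%, beside 66.4% of all genes. The 8 beyond it were Casp9, Casp6, Birc2, Apaf1 and Mcl1 on the higher side and Bmf, Bcl2l11 and Cycs on the lower side.

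**Figure D1:**
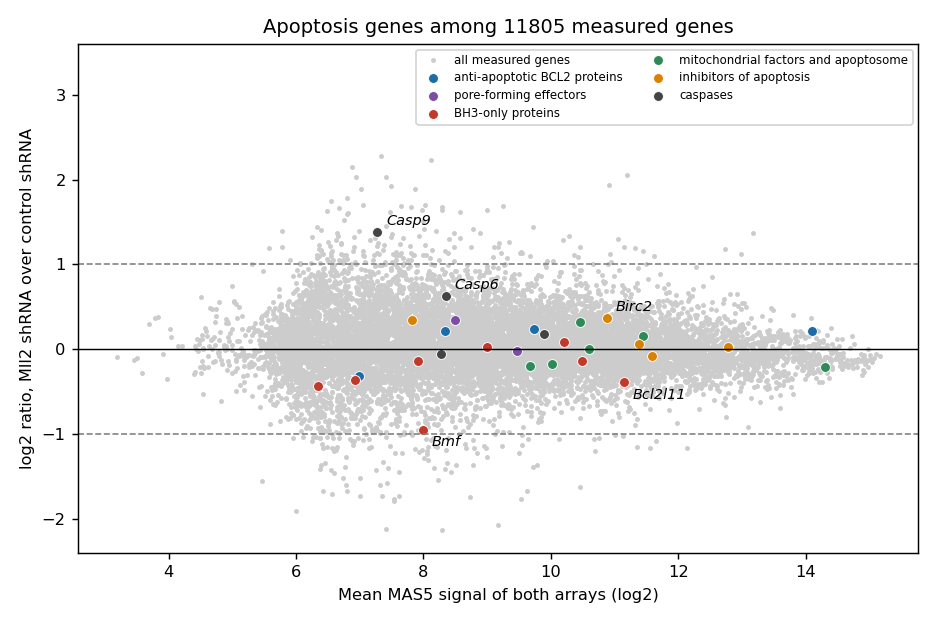
Log2 ratio of Mll2 shRNA over control shRNA (vertical axis) against the mean log2 signal of both arrays (horizontal axis) for all 11805 measured genes in grey and the 29 apoptosis genes in colour by role; dashed lines mark 2-fold. Casp9 at 1.39 is the apoptosis gene past a dashed line, and Bmf at -0.95 lies just inside the lower one.

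Within the list the role groups differed in sign. Of the 8 BH3-only genes 6 had ratios below 0, with a median of -0.25. Of the 4 anti-apoptotic BCL2 genes 3 had ratios above 0, with a median of 0.22. Most of these ratios were within the spread at the gene's level, 6 of the 8 and 3 of the 4. Mcl1, the anti-apoptotic gene beyond its spread, had probe sets on both sides of 0. The caspases had a median of 0.40 over 4 measured members, the inhibitors of apoptosis 0.06 over 5 and the mitochondrial factors with Apaf1 -0.09 over 6. Over all measured genes 53.5% of the ratios lay above 0 and 46.5% below. Of the group medians, those of the BH3-only genes, the anti-apoptotic genes, the inhibitors and the caspases kept their sign under all 10 alternative settings, and that of the mitochondrial factors turned to 0.03 with spike-in scaling. No floor and the 30th percentile floor left these medians as they were, since each measured member lay above the floor on both arrays. A higher floor changed the size of the medians: with the floor at the 70th percentile the caspase median was 0.093 and the BH3-only median -0.08. These are descriptions of 2 arrays, and the difference between groups was not tested.

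**Figure D2:**
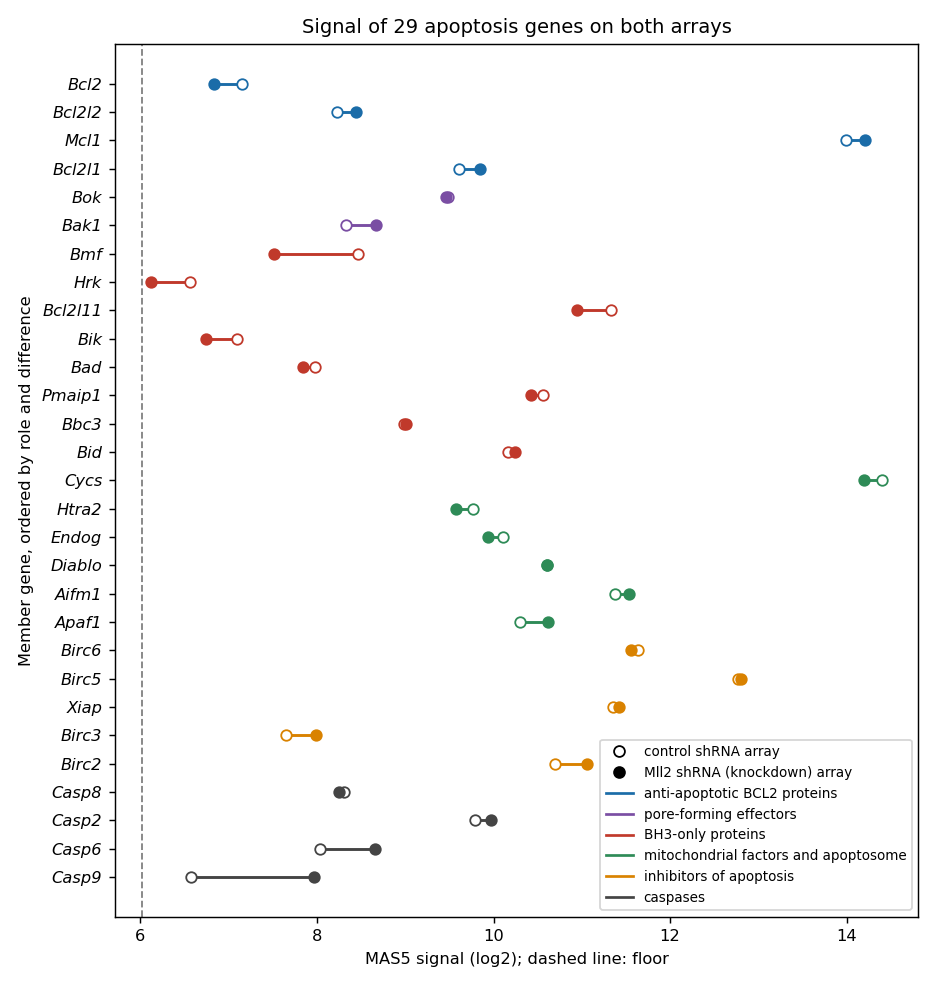
Log2 MAS5 signal (horizontal axis) of the 29 measured apoptosis genes in the control shRNA array (open points) and the knockdown array (filled points), 1 array each, coloured by role; the dashed line is the floor at 6.02. Points of different genes come from different probe sets and are not to be set against each other; within a gene, the longest line is that of Casp9, followed by that of Bmf.

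The promoters of 5 members carry the comparisons that follow. They are shown because Casp9 and Apaf1 encode apoptosome partners that were higher in the knockdown array. Bmf and Bcl2l11 encode the BH3-only proteins whose ratios lay beyond the spread on the lower side. Casp12 stands for the caspases below the floor. Each is the first listed start of the gene in the RefSeq promoter table for assembly GRCm38.p6, 250 bases before to 50 after the transcription start, written 5′ to 3′ on the gene's strand with every CG dinucleotide in capitals. Their positions are chr4:141793362-141793661 on the plus strand for Casp9, chr10:91082694-91082993 on the minus strand for Apaf1, chr2:118544538-118544837 on the minus strand for Bmf, chr2:128125788-128126087 on the plus strand for Bcl2l11 and chr9:5345226-5345525 on the plus strand for Casp12.
Casp9: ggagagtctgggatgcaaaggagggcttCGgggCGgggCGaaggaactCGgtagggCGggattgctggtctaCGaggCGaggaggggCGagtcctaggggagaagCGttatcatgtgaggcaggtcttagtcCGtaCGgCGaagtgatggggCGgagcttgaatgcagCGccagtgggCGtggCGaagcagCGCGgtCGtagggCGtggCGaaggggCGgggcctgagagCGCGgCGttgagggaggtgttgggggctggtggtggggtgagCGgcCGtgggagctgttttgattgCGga
Apaf1: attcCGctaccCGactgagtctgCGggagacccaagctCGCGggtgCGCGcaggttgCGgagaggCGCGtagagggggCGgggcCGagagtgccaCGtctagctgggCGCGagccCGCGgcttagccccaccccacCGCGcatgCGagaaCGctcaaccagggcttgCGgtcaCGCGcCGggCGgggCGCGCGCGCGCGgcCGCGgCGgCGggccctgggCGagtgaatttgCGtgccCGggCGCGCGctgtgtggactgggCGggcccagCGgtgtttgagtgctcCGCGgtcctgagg
Bmf: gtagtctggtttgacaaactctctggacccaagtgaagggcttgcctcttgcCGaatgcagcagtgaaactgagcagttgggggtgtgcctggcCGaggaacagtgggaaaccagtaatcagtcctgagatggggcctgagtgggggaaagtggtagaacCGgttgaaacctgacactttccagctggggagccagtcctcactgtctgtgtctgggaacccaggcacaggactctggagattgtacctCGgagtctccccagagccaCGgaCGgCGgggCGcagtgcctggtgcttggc
Bcl2l11: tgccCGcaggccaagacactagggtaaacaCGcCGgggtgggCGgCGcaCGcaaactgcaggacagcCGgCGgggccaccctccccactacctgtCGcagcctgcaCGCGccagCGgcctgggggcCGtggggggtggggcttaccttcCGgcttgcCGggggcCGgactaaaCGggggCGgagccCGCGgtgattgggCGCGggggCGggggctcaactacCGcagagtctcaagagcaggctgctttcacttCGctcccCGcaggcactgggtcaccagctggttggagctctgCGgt
Casp12: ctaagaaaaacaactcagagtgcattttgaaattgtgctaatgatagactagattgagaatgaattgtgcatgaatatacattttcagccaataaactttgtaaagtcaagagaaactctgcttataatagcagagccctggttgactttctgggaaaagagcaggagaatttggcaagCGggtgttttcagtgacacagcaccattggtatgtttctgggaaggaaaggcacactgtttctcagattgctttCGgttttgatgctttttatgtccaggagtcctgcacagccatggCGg
The windows of Casp9 and Apaf1 hold 28 and 46 CG dinucleotides, that of Bcl2l11 27, that of Bmf 8 and that of Casp12 3. By the first listed start, Cycs, lower and beyond the spread, holds 32. Mcl1, Birc2 and Casp6, higher and beyond it, hold 33, 34 and 16. Further listed starts hold 13 and 6 in Bmf, 38 in Bcl2l11 and 21 in Birc2. The printed windows were chosen by the array results, and a relation of CG number to the ratios was not tested. CG-dense promoters are the usual sites of histone H3 lysine 4 trimethylation, as background.

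The caspases held the largest difference of the list. Casp9, the initiator caspase that the apoptosome activates, had a signal of 249 in the knockdown array and 95.5 in the control array (1437537_at). It was 2.61-fold higher, a log2 ratio of 1.39, where the spread at its level was 0.48, and it ranked 39th highest of the 11805 measured genes. The control signal was not far above the floor of 64.7, and with the floor at the 70th percentile the ratio was reduced to a lower bound of 0.0041. With a pseudocount equal to the floor it was 0.97. The other Casp9 probe sets gave no ratio, since both lay below the floor on both arrays, with 3.10 against 2.99 as log2 values (1426125_a_at) and 2.34 against 3.20 (1457816_at). The difference therefore rests on 1 probe set.

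Casp6, an executioner caspase known for cleaving nuclear lamins, had a signal of 405 in the knockdown array and 263 in the control array. It was 1.54-fold higher, with a log2 ratio of 0.62 and a spread of 0.38 at its level, and its second probe set was below the floor on both arrays. The ratio ran from 0.52 to 0.74 over the alternatives, and it was under 1.5-fold after quantile normalization, after loess and with a pseudocount equal to the floor. Casp2, an initiator caspase that acts upstream of mitochondria in some settings, had signals of 1007 and 887, and Casp8, the initiator caspase of death receptors, 305 and 316. Their log2 ratios of 0.18 and -0.05 lay within the spreads of 0.28 and 0.38. The Casp8 ratio turned to 0.06 with spike-in scaling.

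The caspases of the inflammatory group were not seen in these cells above the floor. Casp1, which matures interleukin-1 beta, had log2 values of 0.09 in the knockdown array and 3.99 in the control array. Casp4 (caspase-11), which senses cytosolic lipopolysaccharide, was at 2.58 and 2.72. Casp12, linked to endoplasmic reticulum stress in mice, was at 4.45 and 4.60 in 1 probe set and at 4.38 and 0.72 in the other. Both arrays were below 6.02 in all of these probe sets, so that no difference was detectable. Casp1, Casp4 and Casp12 lie next to each other on chromosome 9, with no other coding gene of the RefSeq annotation between them. Their promoter windows held 3, 5 and 3 CG dinucleotides, beside a median of 24 over the 26 measured members with a promoter.

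Apaf1, the scaffold of the apoptosome, was higher in both of its probe sets. Its signals were 1569 in the knockdown array and 1258 in the control array in the first (1452870_at), and 106 and 80.2 in the second (1450223_at). The mean log2 ratio was 0.36 ± 0.06 (SD over 2 probe sets), and the first, at 0.32, exceeded the spread of 0.27 at its level. The second, at 0.40, lay within the spread near its level, which was 0.52 for 2810013P06Rik. Apaf1 and Casp9, which assemble on the same platform, were thus both higher, Apaf1 by 1.25-fold and Casp9 in 1 probe set only. Cycs, whose product assembles with APAF1, was lower, at -0.21.

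Among the proteins that mitochondria release, Cycs, Htra2 and Endog had slightly lower signals in every probe set above the floor. Cycs, which encodes somatic cytochrome c of the respiratory chain, had signals of 18744 in the knockdown array and 21618 in the control array. Its 3 probe sets above the floor averaged -0.15 ± 0.05 (SD), all below 0, and the ratio of the probe set used, -0.21, exceeded the spread of 0.15 at that level. It lay inside that spread after quantile normalization, after loess, with spike-in scaling and without suffixed probe sets, where it was between -0.11 and -0.09. As the mean over probe sets it was at -0.148, just inside the spread of 0.152. Htra2, a protease that binds inhibitors of apoptosis, averaged -0.24 ± 0.07 (SD over 2 probe sets), and Endog, a mitochondrial nuclease, -0.24 ± 0.09 (SD over 2). Diablo, an antagonist of the inhibitors, had signals of 1553 and 1555, a ratio of -0.0021, whose sign varied over the alternatives. Aifm1, a flavoprotein needed for respiratory complex assembly, was at 0.16. The probe sets used for Htra2, Endog, Diablo and Aifm1 lay within their spreads of 0.24 to 0.27 as deposited. The second probe sets of Htra2 and Endog, at -0.29 and -0.30, were dimmer. Genes near their levels, such as Alas1 and Ankmy2, had a spread of 0.335, so that these ratios also lay within it. Aifm1, with a spread of 0.24, was at 0.27 with spike-in scaling.

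**Figure D3:**
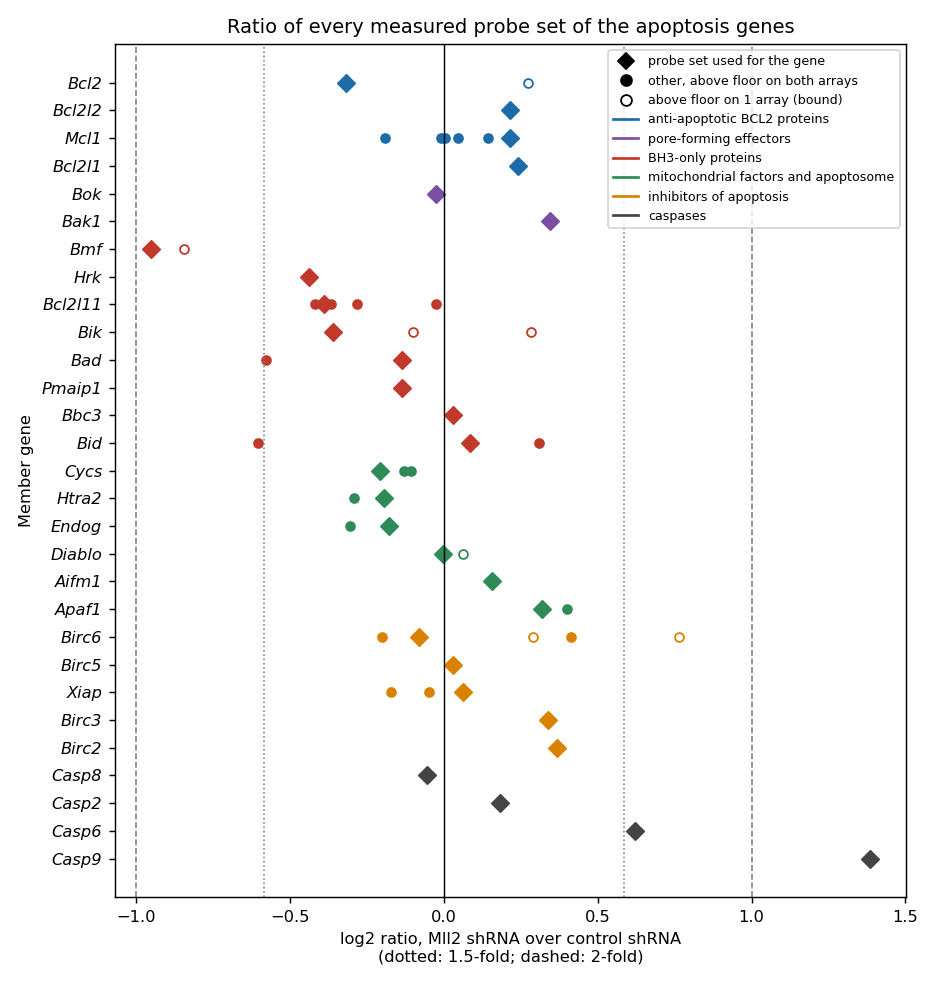
Log2 ratio of Mll2 shRNA over control shRNA (horizontal axis) for every probe set of an apoptosis gene that exceeded the floor on either array; diamonds mark the probe set used for the gene and open points are lower bounds in size. All 5 Bcl2l11 probe sets lie below 0, whereas the probe sets of Bid, Birc6, Xiap and Mcl1 fall on both sides of it.

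Among BH3-only genes Bmf had the largest difference. It encodes a protein that is held at the cytoskeleton and released on loss of attachment. Its signal was 183 in the knockdown array and 353 in the control array (1454880_s_at), 1.93-fold lower with a log2 ratio of -0.95, where the spread at its level was 0.37. It ranked 144th lowest of the measured genes. A second probe set (1458325_x_at) was above the floor in the control array only, at 58.1 against 116, and was at least 1.80-fold lower. The third was below the floor on both arrays, with 5.72 and 2.36 as log2 values. Both probe sets with a ratio carry a suffix that marks probes able to match several transcripts, and without such probe sets Bmf was not measured. With the floor at the 70th percentile the ratio was -0.51, under 1.5-fold.

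Bcl2l11, which encodes BIM, a BH3-only protein that binds all anti-apoptotic BCL2 proteins, was the member with the most probe sets of 1 sign. Its signals were 1974 in the knockdown array and 2585 in the control array in the first probe set (1456005_a_at), 1239 and 1597 in the second (1435448_at), and 438 and 586 in the third (1435449_at). The dimmer ones had 169 and 205 (1426334_a_at) and 107 and 109 (1456006_at). All 5 were lower in the knockdown array, with a mean log2 ratio of -0.30 ± 0.16 (SD over 5 probe sets) and a range from -0.42 to -0.03. The probe set used was 1.31-fold lower, at -0.39 where the spread was 0.29, and the ratio stayed between -0.40 and -0.27 over the 10 alternatives. Probe sets of a gene were read on the same arrays and can share sequence, so they are not replicates.

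The other BH3-only genes had ratios smaller in size than that of Bmf. Hrk, a neuronal BH3-only gene, had signals of 69.8 and 94.6 in the Mll2 shRNA and control arrays, a ratio of -0.44 within a spread of 0.58. Bik, first described as a BCL2-interacting killer, had 107 and 137, a ratio of -0.36 within a spread of 0.47, and its dimmer probe sets gave bounds of 0.28 and -0.10, which differ in sign. Bad, which growth factor kinases inactivate by phosphorylation, had 230 and 253 in the probe set used and 183 and 272 in the second, ratios of -0.14 and -0.58. The first lay within its spread of 0.40. The second lay beyond the spread near its level, which was 0.40 for Abcg1. Pmaip1 (NOXA), which neutralises MCL1, was at -0.13, and Bbc3 (PUMA), the BH3-only target of p53 best known in DNA damage, at 0.03, turning to -0.01 after quantile normalization and -0.02 after loess.

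Bid, which caspase-8 cleaves to link death receptors to mitochondria, had no settled direction. Its signals in the Mll2 shRNA and control arrays were 1212 and 1143 in the probe set used, 227 and 183 in the second, and 85.5 and 130 in the third. The ratios of 0.09, 0.31 and -0.60 averaged -0.07 ± 0.48 (SD over 3 probe sets), an SD larger than the size of the mean.

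On the anti-apoptotic side the differences were small. Mcl1, a short-lived protein on which early embryos depend, had 6 probe sets over the floor. The probe set used had signals of 18929.7 in the knockdown array and 16296 in the control array, a ratio of 0.22 beyond the spread of 0.15 at that level. The 6 averaged 0.03 ± 0.14 (SD), with 4 above 0 and 2 below and a range from -0.19 to 0.22, so that no common direction was seen. Bcl2l1, which encodes BCL-XL, had signals of 923 and 782, a ratio of 0.24, and Bcl2l2, which encodes BCL-W, 348 and 300, a ratio of 0.21. Both were within their spreads of 0.27 and 0.37, and each had 3 further probe sets below the floor on both arrays.

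Bcl2 itself was dim. Its signals were 114 in the knockdown array and 142 in the control array, a ratio of -0.32 within a spread of 0.46. A further probe set was above the floor in the knockdown array only, at 78.3 against 18.1, and gave a bound of 0.27 in the other direction. The remaining 3 were below the floor on both arrays. Of the effectors, Bak1 had signals of 407 and 321, a ratio of 0.34 within a spread of 0.35, and Bok, a relative of BAX and BAK, 704.5 and 716, a ratio of -0.02, which turned to 0.09 with spike-in scaling.

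Birc2 and Birc3 were the higher members of the inhibitors of apoptosis. They encode cIAP1 and cIAP2, ubiquitin ligases of tumour necrosis factor receptor signalling, and lie next to each other on chromosome 9 with no other coding gene between them. Birc2 had signals of 2137 in the knockdown array and 1658 in the control array, 1.29-fold higher with a log2 ratio of 0.37 beyond the spread of 0.28. Birc3 had 254 and 200.4, a ratio of 0.34 within a spread of 0.43, and its second probe set was below the floor on both arrays. The Birc2 ratio ran from 0.35 to 0.48 over the 10 alternatives. That of Birc3 ran from 0.03, with the floor at the 70th percentile, to 0.46.

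The other inhibitors had ratios close to 0. Birc5 (survivin), a mitotic protein of the chromosomal passenger complex, had signals of 7149 and 6997, a ratio of 0.03 that stayed above 0 in the 9 alternatives that measured it. Xiap, a direct inhibitor of caspase-9, had 2741 and 2623 in the probe set used, a ratio of 0.06, and averaged -0.05 ± 0.12 (SD over 3 probe sets). Birc6, a giant ubiquitin ligase, had 3007 and 3178, a ratio of -0.08, and averaged 0.04 ± 0.33 (SD over 3 probe sets over the floor on both arrays), with ratios from -0.20 to 0.41. A Birc6 probe set above the floor in the knockdown array only, at 110 against 35.0, was at least 1.70-fold higher. Xiap and Birc6 both changed sign between alternatives.

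**Figure D4:**
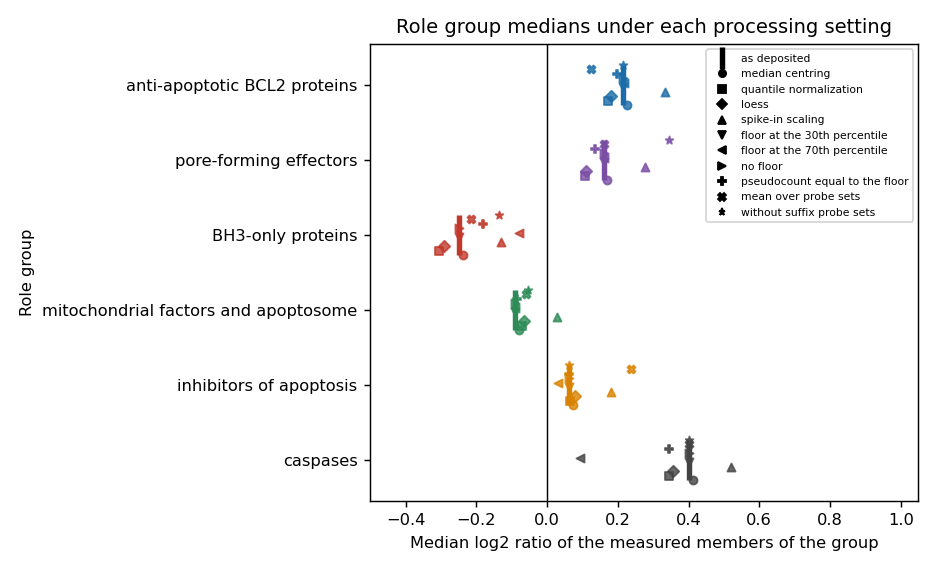
Median log2 ratio of the measured members of each role group (horizontal axis) as deposited (vertical bars) and under 10 alternative settings (symbols). The BH3-only medians lie between -0.31 and -0.08 and the anti-apoptotic medians between 0.12 and 0.33; with spike-in scaling the median of all genes is higher by 0.11.

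How far probe sets of a gene bore each other out was counted over the list. Of the 83 probe sets 50 lay above the floor on both arrays, 7 on 1 array and 26 on neither. Of the 50, 21 had ratios above 0 and 29 below. Of the 29 measured members 10 had at least 2 probe sets that passed the floor on both arrays, and in 6 of them, Bad, Bcl2l11, Apaf1, Cycs, Htra2 and Endog, all had the same sign. In the other 4, Mcl1, Bid, Xiap and Birc6, they did not. The 2 brightest probe sets agreed in sign in 7 of these 10 members, or 70%, beside 66.1% of 4713 genes with such a pair. The remaining 19 members, Casp9, Casp6 and Bmf among them, rest on a single such probe set.

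Apoptosis genes outside the list were examined next. Of 44 such genes 29 were measured, 7 were below the floor and 8 were not analysed here. Of the 29, 12 were higher and 17 lower, with a median of -0.09. None was 2-fold apart, and 2, or 6.90%, were 1.5-fold apart, beside 12.1% of all genes. Bcl2l14, a BCL2 relative, was at 0.73, with signals of 112 and 67.3 close to the floor of 64.7, and Septin4, whose product ARTS antagonises XIAP, was at -0.61, with -0.51 in its second probe set. Of the 11 measured death receptor and adaptor genes 6 were higher and 5 lower (median 0.01). Of the 8 caspase substrates and DNA fragmentation factors 7 were lower and 1 higher (median -0.18), beside 46.5% lower over all genes. Their ratios lay within the spread in 5 of the 8, and the genes Rock1 and Lmna also had probe sets on the higher side, at 0.33 and 0.17. A further Lmna probe set was at -0.81. Every Parp1 probe set was lower, from -0.16 to -0.83, and so was every Gsn probe set above the floor. Gsn was at -0.49 in the probe set used and past 1.5-fold in others, at -0.62, -0.69 and -0.76. Of the 3 channels of the outer mitochondrial membrane Vdac1 and Vdac2 were lower, at -0.41 and -0.33, and Vdac3 higher, at 0.08. The other bright Vdac1 probe sets were closer to no difference, at -0.20, -0.08 and -0.05. A dim Vdac1 probe set, above the floor in the control array only, gave a bound of -1.09. The 4 measured BCL2 relatives outside the list were split 2 and 2 (median -0.02), and of the 3 other caspase and inhibitor genes measured 2 were higher and 1 lower (median 0.05).

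The promoters of the list resembled those of other measured genes in composition. A window was found for 30 of the 33 members, all but Bik, Htra2 and Pmaip1. By the first listed start the median number of CG dinucleotides was 21 in the 30 members and 21 in 9559 measured genes, beside 7 in all 32851 promoters of the table. The GC box GGGCGG, searched on both strands with overlapping matches counted, was found in 20 of the 30 members, or 66.7%, in 66.0% of the measured genes and in 35.7% of all promoters. Of the printed windows those of Casp9, Apaf1 and Bcl2l11 hold it 4, 3 and 3 times and those of Bmf and Casp12 do not.

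CG dinucleotides ranged from 1 in Bcl2l1 to 46 in Apaf1, and further listed starts of Bcl2l1 held 14 and 22. The caspases had the lowest group median, 5, with Casp8 at 5 although it was measured. The forkhead core GTAAACA, searched on both strands, was found in 2 of the 30, Bcl2l11 and Casp4, in 2.50% of the measured genes and in 3.65% of all promoters. The second listed start of Bcl2l11 does not hold it, and the second listed start of Bbc3 does. FOXO factors are known to induce Bcl2l11, and a match of these letters is a description and not a binding site. The E-box CACGTG was found in 2 of the 30, in 10.6% of the measured genes and in 7.15% of all promoters. The CCAAT box CCAAT was found in 8 of the 30, in 38.9% of the measured genes and in 37.4% of all promoters, and the TATA box TATAAA in none of the 30, in 6.96% and in 13.6%. Each was searched on both strands and counted apart from the other motifs.

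**Figure D5:**
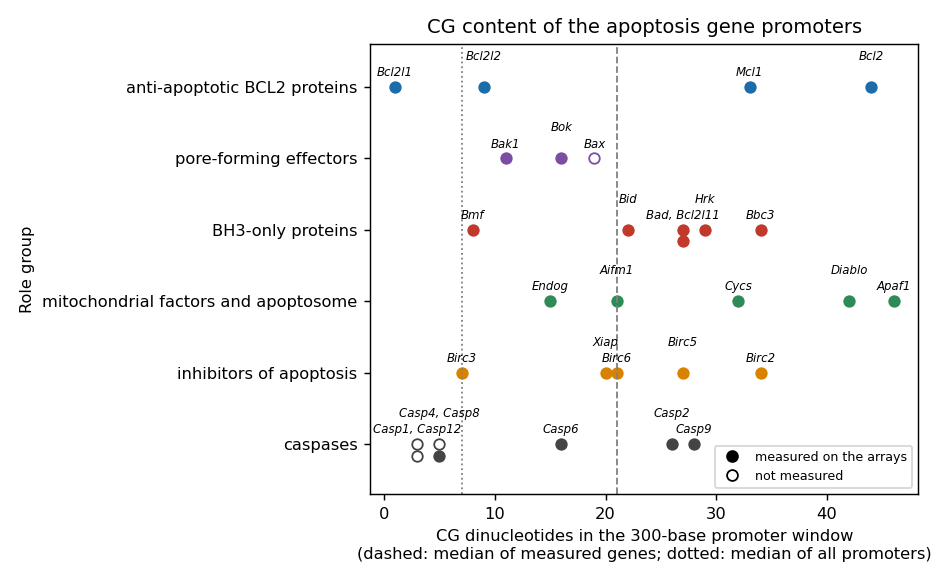
Number of CG dinucleotides in the 300-base promoter window (horizontal axis) of 30 apoptosis genes by role, filled where the gene was measured on the arrays and open where it was not; the dashed line is the median of measured genes, 21, and the dotted line that of all promoters, 7. Casp1, Casp4 and Casp12, all below the floor on both arrays, lie between 3 and 5, and so does the measured Casp8.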

How the data were processed

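The deposited table held log2 signals of 45101 probe sets on 2 Affymetrix 3' expression arrays, 1 per group. The authors made them with MAS5, per the submitters' processing notes; the version is not given in the sources used here. MAS5 sets a trimmed mean of each array to a target and subtracts mismatch probes, which makes dim probe sets noisy. The 2% trimmed mean signal was 500.0 on both arrays. After removal of 64 control probe sets, the platform annotation gave 1 symbol for 34945, several for 932 and none for 9160, and 34741 symbols were updated through Entrez numbers to RefSeq (GRCm38.p6). Python 3.11.15, numpy 2.4.6, pandas 2.3.3 and statsmodels 0.14.6 (lowess) were used, and the steps were tested on simulated data. Alternatives were 4 scalings, 2 other floors, no floor, a pseudocount, the mean over probe sets and leaving out suffixed probe sets. The members, role groups and lists were chosen with earlier results of these data known. Every member is named, with values on both arrays for those 1.5-fold apart, for bright ones and for those whose probe sets disagree. A few further values were chosen after they were seen.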

Additional observations from a re-analysis of the deposited data

How the results depend on the processing

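The count of members at least 2-fold higher, 1 as deposited, was 0 under a 70th percentile floor and 0 under a pseudocount equal to the floor. The count at least 2-fold lower, 0 as deposited, was 1 after quantile normalization and 1 after loess, where Bmf was at -1.01 in both. The count at least 1.5-fold higher, 2 as deposited, was 1 after quantile normalization, loess, the higher floor and the pseudocount. The count at least 1.5-fold lower, 1 as deposited, was 0 with the higher floor, where Bmf was at -0.51, and 0 without suffixed probe sets, where Bmf was not measured. With the higher floor the caspase median was 0.093, since raised values shrink ratios. Of all measured genes 173 were 2-fold higher and 116 lower as deposited, 494 and 482 under a 30th percentile floor, 50 and 38 at the 70th, 380 and 338 with no floor and 87 and 70 with the pseudocount. With spike-in scaling 75.9% of the 2-fold calls were higher, beside 59.9% as deposited, and the median of all genes was higher by 0.11; the cause was not tested. Of 281 ratios of single members under alternatives 276 moved by less than the spread at the gene's level and 5 moved by more. The 276 include settings that could not move a ratio. No floor and the 30th percentile floor left every member ratio as it was, since each lay above the floor on both arrays. The mean over probe sets could not change a member with a single measured probe set. No paired analysis was possible because each group had 1 array. Signals near the floor limit Casp9, Hrk, Bik, Bcl2, Bmf, Birc3 and Bad: with the higher floor Hrk, Bik and Bcl2 were not measured, and Casp9 was at 0.0041, Birc3 at 0.03 and Bad at -0.02. Without suffixed probe sets Bad was at -0.58, a move by more than the spread at its level.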
